A study of Mus musculus with 8 samples.

Results

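The genes described here are 9 regulators of muscle fibre type: the transcription factors Six4, Sox6, Prox1, Tbx15, Maf and Nfatc1, the cofactors Eya1 and Eya4, and the calcineurin regulator Rcan1. They were chosen by symbol, and all 9 were found among the 22880 genes with a read count in each mouse. RNA was sequenced from whole soleus, a hindlimb muscle rich in slow fibres, of 4 control and 4 Dnm2 wt/K562E mice. All were males of 2 months on a C57BL/6 background (the labels' name, with the substrain J in the study's methods). The Dnm2 wt/K562E mice carried 1 wild type and 1 knock-in Dnm2 allele in every cell, made by homologous recombination in embryonic stem cells, and the knock-in allele also keeps a LoxP site in an intron. Controls had wild type alleles of Dnm2. Dnm2 encodes dynamin 2, a GTPase that pinches off membrane vesicles. A heterozygous point mutation need not change RNA level, so gene counts do not bear on the genotype labels, and reads carrying the mutation were not analysed here.

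Skeletal muscle holds slow fibres, which use slow myosin and oxidative metabolism, and fast fibres, which use fast myosins and, in part, glycolysis. Six4, of the sine oculis family, binds Eya cofactors and helps to switch on fast fibre genes, Sox6 represses slow fibre genes in fast fibres, and the large Maf protein takes part in expression of the fastest myosin, Myh4. Tbx15 is found in glycolytic fibres, whereas Prox1 and calcineurin acting through Nfatc1 are tied to the slow programme. Rcan1 binds and inhibits calcineurin and is itself switched on by it.

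Of these 9 genes, 4 fell in Dnm2 wt/K562E soleus: Eya1 by 2.11-fold, Six4 by 1.46-fold, Prox1 by 1.45-fold and Sox6 by 1.34-fold. Eya4 rose 1.45-fold and Tbx15 1.19-fold, while Maf, Nfatc1 and Rcan1 did not pass the test. The set that fell therefore holds both fast programme genes (Six4, Eya1, Sox6) and Prox1, tied to slow fibres. These calls rest on edgeR's quasi-likelihood test with Benjamini-Hochberg adjustment over all 14001 tested genes, at an adjusted p under 0.05 (n = 4 mice per genotype). At that threshold 22.2% of all tested genes were higher and 21.7% lower, 43.8% in all. Eya1 alone also passed a log2 fold change of 0.58 in size, a threshold that 12.9% of tested genes passed upward and 7.85% downward together with the adjusted p (20.7% in all). The median log2 fold change of the 9 genes was -0.29, against 0.01 for all tested genes. In 6 of the 9 genes the values of the genotypes did not overlap, 2 being higher and 4 lower. The same held for 41.2% of tested genes, 20.6% higher and 20.5% lower.

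Levels are given as CPM, read counts scaled to a common library total after correction by TMM, which sets libraries level on genes that differ little between them. All scaled values depend on this step: without it, on library size alone, the median of all tested genes moved up by 0.21 on the log2 scale. On that scale no member changed direction, and the same 6 genes still passed the adjusted p, but Six4 (log2 fold change -0.33), Sox6 (-0.21) and Prox1 (-0.33) shrank and Tbx15 (0.46) grew. Six4, Sox6 and Prox1 then passed only just (adjusted p = 0.0427, 0.0475 and 0.0443 by edgeR's quasi-likelihood test). Over all tested genes, calls past both thresholds were 1806 higher and 1099 lower with TMM and 2865 higher and 564 lower on library size alone. Only Eya4 and Tbx15 then remained without overlap between the genotypes, beside 46.3% of tested genes. Each mouse had between 33407430 and 48832814 counts, and the 9 genes had between 264 and 20140 reads each in a mouse. Dnm2 itself lay at 59.21 to 68.85 CPM in controls and 70.27 to 76.07 CPM in Dnm2 wt/K562E mice, without overlap, and missed the threshold (log2 fold change 0.15, adjusted p = 0.0909 by edgeR's quasi-likelihood test, but 0.0027 on library size alone). The skeletal myofibre markers were expressed in every mouse. Their summed level was lower in Dnm2 wt/K562E mice (40808.1 to 46499.9 CPM) than in controls (55495.5 to 61955.1 CPM), with 1 of 6 tested markers higher and 4 lower. In whole muscle, fewer fibres of a kind and less RNA per fibre cannot be told apart, and the part of cell composition in the results was not tested.

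**Figure D1:**
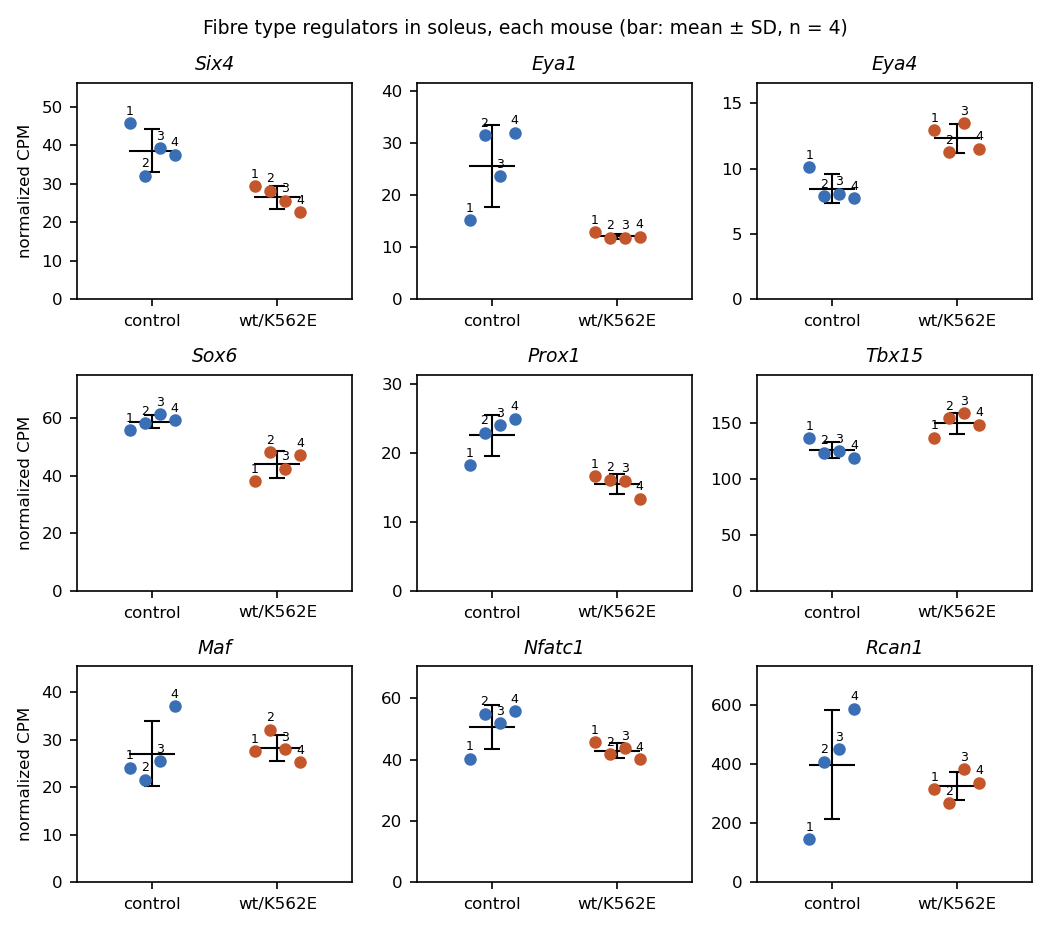
Normalised CPM of the 9 genes in each mouse (points), 1 panel per gene, with control mice on the left and Dnm2 wt/K562E mice on the right and bars for the mean ± SD (n = 4). In 6 panels the genotypes do not overlap, Rcan1 runs from 145.2 to 588.0 CPM among the controls, and Eya1 from 15.25 to 31.94 CPM.

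Six4, a homeodomain factor (chr12:73099609-73113456, minus strand, GRCm38), was at 45.7, 32.19, 39.24 and 37.57 CPM in controls 1 to 4 and at 29.38, 28.22, 25.66 and 22.7 CPM in Dnm2 wt/K562E mice 1 to 4. Every Dnm2 wt/K562E mouse lay below every control, and control 1 was the highest of all. The means were 38.67 ± 5.57 and 26.49 ± 2.97 CPM (SD, n = 4 each). The log2 fold change was -0.55 ± 0.11 (SE), with an adjusted p of 0.00254 by edgeR's quasi-likelihood test. Of the 31-base stretches in its transcripts, 1.42% also occur in other genes.

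Eya1, which Six4 recruits as a coactivator (chr1:14168954-14310235, minus strand), was at 15.25, 31.54, 23.61 and 31.94 CPM in controls and at 12.87, 11.81, 11.83 and 12.0 CPM in Dnm2 wt/K562E mice. The mutants were tightly grouped, within 1.09-fold, and the controls spread over 2.09-fold, with control 1 closest to the mutants but still above all of them. This gave a log2 fold change of -1.08 ± 0.19 (SE), with an adjusted p of 0.00113 by edgeR's quasi-likelihood test. Leaving out each mouse in turn gave log2 fold changes from -1.27 to -0.96.

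Eya4, of the same family (chr10:23102963-23350786, minus strand), went the other way. It was at 10.13, 7.9, 8.11 and 7.77 CPM in controls and at 12.98, 11.27, 13.5 and 11.54 CPM in Dnm2 wt/K562E mice. All Dnm2 wt/K562E mice were above all controls, of which control 1 stood highest. Its log2 fold change was 0.54 ± 0.11 (SE), with an adjusted p of 0.00266 by edgeR's quasi-likelihood test.

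Six2, Six5, Eya2, Eya3 and the Dach genes, whose proteins join the same complexes, were listed as partners. Of 6 tested partners, 1 was higher, 2 were lower and 3 did not pass the adjusted p, with a median log2 fold change of 0.04 against 0.01 for all genes. Eya2 rose from 6.62 ± 0.72 to 13.3 ± 1.18 CPM (SD, n = 4 each), a log2 fold change of 1.01 with an adjusted p of 3.77e-05 by edgeR's quasi-likelihood test. Dach2 fell by 1.30 on the log2 scale, from 13.24 ± 2.64 to 5.38 ± 0.61 CPM. Dach1 (log2 fold change -0.59) fell too, whereas Eya3 (0.15), Six5 (0.27) and Six2 (-0.07) did not pass. On library size alone Six5 and Eya3 passed as well, and Six2 changed sign.

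Setting the Eya genes side by side needs a correction for length, so CPM were divided by exon length in kilobases. Of the summed Eya level per kilobase, Eya1 made up 18.9%, 34.3%, 26.5% and 34.7% in controls and 12.4%, 11.4%, 12.4% and 12.3% in Dnm2 wt/K562E mice. In every Dnm2 wt/K562E mouse its share was lower than in any control. The share of Eya2 was 19.8% ± 2.71 in controls and 35.1% ± 2.39 in Dnm2 wt/K562E mice (SD, n = 4 each), again without overlap. Eya3 held the greatest share in both genotypes, at 43.6% ± 4.45 and 42.5% ± 1.79. Eya4 made up 8.02% ± 1.61 and 10.2% ± 1.11, with overlapping values. The sum itself was 12.2 to 13.2 CPM per kilobase in Dnm2 wt/K562E mice and 10.3 to 11.8 in controls, so the family total did not fall with Eya1. A share within a mouse does not depend on library scaling, and these shares are given as a description, without a test.

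**Figure D2:**
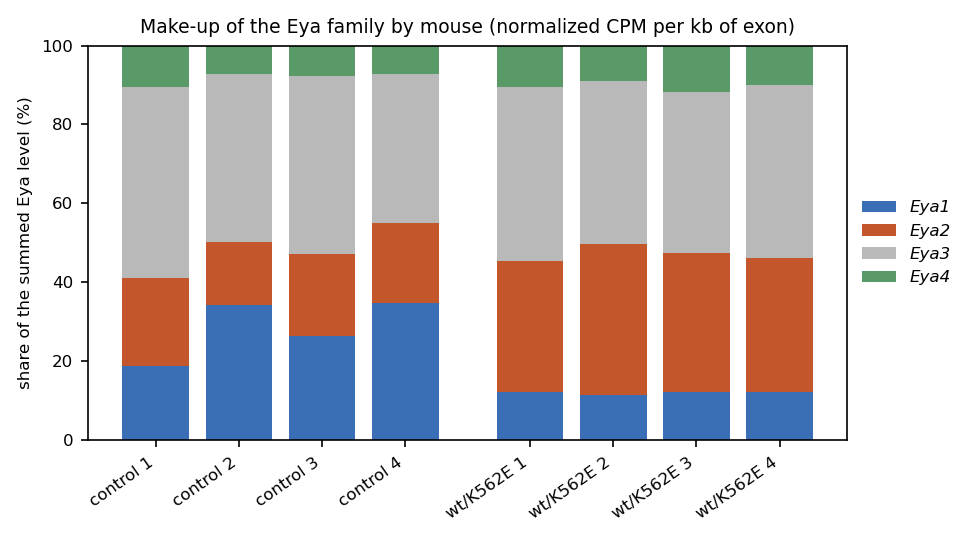
Stacked bars, 1 per mouse, of the percentage that each Eya gene holds of the summed Eya level per kilobase of exon. The Eya1 segment is at least 18.9% in controls and at most 12.4% in Dnm2 wt/K562E mice, and the Eya2 segment averages 19.8% and 35.1%.

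Satellite cells, the stem cells of muscle, also use Six4 and Eya genes. The summed level of their markers was higher in Dnm2 wt/K562E mice (160.4 to 185.3 CPM) than in controls (66.91 to 94.62 CPM), but of 6 tested markers 1 rose and 3 fell. Chodl (log2 fold change 1.82) carried the sum, and the other 5 markers summed to 37.98 to 47.13 CPM in controls and 28.08 to 35.36 CPM in Dnm2 wt/K562E mice. Pax7 (-2.03), the defining factor of these cells, Myf5 (-1.85) and Calcr (-3.47) fell. The markers of fibro-adipogenic cells, the resident connective tissue cells, summed to 913.9 to 1296.7 CPM in controls and 1720.3 to 2256.4 CPM in Dnm2 wt/K562E mice, with 5 of 6 higher and 1 lower. Tendon markers summed to 293.4 to 629.8 and 883.6 to 1209.2 CPM, with 5 of 5 higher. Smooth muscle markers went down (424.5 to 554.5 CPM in controls, 293.4 to 312.6 CPM in Dnm2 wt/K562E mice, 4 of 4 lower), Schwann cell markers gave 1 of 5 lower, adipocyte markers 0 of 4 called, and of the T cell markers only 1 was tested, with Cd3e and Cd3g at 0 in some mice. How far these cell types contribute to Six4, Eya1, Eya2 and Eya4 was not tested.

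Sox6 represses slow fibre genes, and in muscle 2 microRNAs made from introns of slow myosin genes are known to act on it: miR-499-5p from Myh7b and miR-208b-3p from Myh7. The mature microRNAs and the sites in the Sox6 3' untranslated region are shown because these host genes were measured here and the microRNAs were not. Sequences are 5' to 3', the microRNAs are from RefSeq (GRCm38.p6) and the sites from the Sox6 transcript of GENCODE M21 with the longest 3' untranslated region. Capitals mark the seed, bases 2 to 8 of the microRNA, and in Sox6 the 7 bases complementary to a seed. The microRNAs lie at chr2:155622893-155622913 (plus strand) and chr14:54975710-54975731 (minus strand) and share the first 6 bases of their seeds. The Sox6 sites are on the minus strand, at chr7:115476633-115476656, chr7:115476624-115476647, chr7:115476311-115476334 and chr7:115476289-115476312 in the order given, and base numbers count from the start of the untranslated region to the start of GTCTTA.
mmu-miR-499-5p: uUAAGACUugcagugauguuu
mmu-miR-208b-3p: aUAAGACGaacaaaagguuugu
Sox6 site for miR-208b-3p, base 277 of the region: tctctgcccatcgcCGTCTTAtga
Sox6 site for miR-499-5p, base 286: atcgccgtcttatgAGTCTTAcat
Sox6 site for miR-499-5p, base 599: ttaactattttaaaAGTCTTAcag
Sox6 site for miR-499-5p, base 621: aggagacactgcaaAGTCTTAgac

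The sites at bases 277 and 286 are printed with windows that overlap. Over its 6046 bases the Sox6 3' untranslated region held 8 copies of GTCTTA, the 6 bases that match both seeds on the transcript strand, 3 of AGTCTTA and 1 of CGTCTTA, each of which contains GTCTTA. Among the longest 3' untranslated regions of 21102 genes, 25.8% held GTCTTA at least once and 0.033% held 8 or more, and regions of all lengths were counted. Per kilobase, GTCTTA came 1.32 times in Sox6 and 0.233 times over all genes. A match of letters is a description of the sequence, and microRNA action was not measured.

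Sox6 (chr7:115470872-116038796, minus strand) was at 56.04, 58.33, 61.57 and 59.5 CPM in controls and at 38.13, 48.3, 42.57 and 47.24 CPM in Dnm2 wt/K562E mice. Controls were within 1.1-fold of each other, the tightest of the 9 genes, and every Dnm2 wt/K562E mouse lay below them. The means were 58.86 ± 2.31 and 44.06 ± 4.67 CPM (SD, n = 4 each). The log2 fold change was -0.42 ± 0.08 (SE), with an adjusted p of 0.00162 by edgeR's quasi-likelihood test. The microRNA hosts were lower as well: Myh7, the slow myosin heavy chain, fell by 0.52 on the log2 scale (adjusted p = 0.000422) and Myh7b by 0.56 (adjusted p = 0.0227), both by edgeR's quasi-likelihood test. Myh7b lost its call on library size alone (log2 fold change -0.34, adjusted p = 0.122 in the same edgeR test) and when Dnm2 wt/K562E mouse 1 or 4 was left out (-0.44 and -0.49). Host gene counts are of the messenger RNA and do not give the level of the microRNA.

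Prox1, a homeodomain factor of slow fibres and also of lymphatic endothelium (chr1:190118035-190170714, minus strand), was at 18.17, 22.9, 23.94 and 24.94 CPM in controls and at 16.57, 16.08, 15.93 and 13.35 CPM in Dnm2 wt/K562E mice. The genotypes did not overlap, and control 1 was the lowest control. This gave a log2 fold change of -0.54 ± 0.11 (SE), with an adjusted p of 0.00236 by edgeR's quasi-likelihood test. The lymphatic endothelial markers were mixed, summing to 80.02 to 107.5 CPM in controls and 86.16 to 126.5 CPM in Dnm2 wt/K562E mice. Of 5 tested, Lyve1 (log2 fold change 0.93) and Pdpn (0.82) were higher, Flt4 (-0.40) was lower, and Reln (-0.11) and Mmrn1 (0.37) did not pass. Lyve1 lost its call without control 2 or 3 or Dnm2 wt/K562E mouse 1 or 2 (0.73 to 0.88). The part of lymphatic cells in the Prox1 level was not tested. All 6 blood endothelial markers fell, from sums of 974.8 to 1018.0 CPM to 690.6 to 793.9 CPM. An antisense gene on the other strand, Prox1os, overlaps 1.59% of the exon bases of Prox1 and had no count of its own, and since the use of strand in the counting is not stated, reads of the pair cannot be told apart there.

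Tbx15, a T-box factor (chr3:99240381-99354259, plus strand), was at 136.5, 123.5, 125.0 and 119.2 CPM in controls and at 137.0, 154.2, 158.9 and 148.7 CPM in Dnm2 wt/K562E mice. The genotypes were separated by less than 1 CPM, between control 1 and Dnm2 wt/K562E mouse 1. Its log2 fold change was 0.25 ± 0.07 (SE), the smallest of those that passed, with an adjusted p of 0.0107 by edgeR's quasi-likelihood test. T-box genes are also used by connective tissue cells, whose markers were higher in Dnm2 wt/K562E mice as given above, and the part of these cells in the Tbx15 level was not tested.

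Maf, the large Maf factor (chr8:115682942-115707794, minus strand), was at 24.07, 21.59, 25.44 and 37.04 CPM in controls and at 27.54, 32.07, 28.0 and 25.3 CPM in Dnm2 wt/K562E mice. The ranges overlapped, and control 4 was above all other mice. The log2 fold change was 0.06 ± 0.15 (SE), with an adjusted p of 0.759 by edgeR's quasi-likelihood test. Its sign turned when control 2 or Dnm2 wt/K562E mouse 2 was left out. Control 4 also stood apart in Myh4, the fast myosin whose expression uses large Maf factors: Myh4 was at 426.4, 371.6, 162.8 and 3133.8 CPM in controls and at 34.92, 34.0, 45.87 and 50.86 CPM in Dnm2 wt/K562E mice. The Myh4 values did not overlap, and its log2 fold change was -4.63 (adjusted p = 0.00119 by edgeR's quasi-likelihood test), a 24.7-fold difference. Without control 4 the control mean of Myh4 was 320.3 ± 139.1 CPM (SD, n = 3) and the difference 7.76-fold (adjusted p = 2.64e-05 in the same edgeR test). Control 4 was the highest control in other fast fibre genes listed below too, such as Actn3 (757.7 CPM), Pvalb and Mybpc2. It was the lowest control in others, such as Myh2 (9179.3 CPM) and Myh1 (4026.5 CPM). Macrophages also express Maf, and their markers summed to 79.69 to 152.3 CPM in controls and 158.4 to 269.7 CPM in Dnm2 wt/K562E mice, with 5 of 6 higher and 0 lower. The highest control sum, 152.3 CPM, was again that of control 4, and what sets this mouse apart was not tested. Of the exon bases of Maf, 5.34% overlap an antisense gene, Gm15655, with no count of its own.

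Nfatc1, the calcineurin-dependent factor (chr18:80606205-80713071, minus strand), was at 40.34, 55.0, 51.87 and 55.79 CPM in controls and at 45.76, 41.7, 43.79 and 40.19 CPM in Dnm2 wt/K562E mice. Controls 2 to 4 lay above all Dnm2 wt/K562E mice, and control 1 lay among them. This gave a log2 fold change of -0.24 ± 0.10 (SE), with an adjusted p of 0.0672 by edgeR's quasi-likelihood test. Without control 1 the log2 fold change was -0.35 and passed (adjusted p = 0.00165 in the same edgeR test). On library size alone, with all mice kept, it was -0.03 (adjusted p = 0.821 in the same edgeR test).

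Rcan1 (chr16:92391953-92470867, minus strand) was the most variable of the 9 genes. It was at 145.2, 408.3, 451.1 and 588.0 CPM in controls, a 4.05-fold range, and at 315.3, 267.5, 382.5 and 337.1 CPM in Dnm2 wt/K562E mice, a 1.43-fold range. Control 1 was the lowest of all mice and controls 2 to 4 the highest. Its log2 fold change was -0.29 ± 0.32 (SE), with an adjusted p of 0.483 by edgeR's quasi-likelihood test. Without control 1, the control mean was 482.5 ± 93.9 CPM (SD, n = 3) and the log2 fold change -0.57 (adjusted p = 0.00493 in the same edgeR test), and without control 4 it was -0.05. The value for Rcan1 thus depended on controls 1 and 4.

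Rcan1 is transcribed from an upstream start and from an internal start known to answer to calcineurin and NFAT. The 250 bases before the internal start (chr16:92400079-92400328, minus strand, RefSeq, GRCm38.p6) are shown because gene counts pool both starts. Capitals mark GGAAAA, the NFAT core, on either strand.
Rcan1 internal start: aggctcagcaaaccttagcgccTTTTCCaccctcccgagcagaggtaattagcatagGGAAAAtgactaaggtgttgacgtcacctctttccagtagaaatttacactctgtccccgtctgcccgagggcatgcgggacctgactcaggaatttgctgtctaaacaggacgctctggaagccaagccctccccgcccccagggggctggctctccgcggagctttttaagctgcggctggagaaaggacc

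The core came 228 and 193 bases before the internal start, and the 250 bases before the upstream start had no copy. At least 1 copy is held by 20.4% of 32851 RefSeq promoter windows of this length. The other letters searched on both strands were TCAGGTT (the MEF3 element bound by Six4, in 3.49% of windows), AACAAT (Sox, 9.42%), TGCTGAC (Maf, 3.81%) and GGTGTGA (T-box, 3.33%). None of these contains another. Of the 9 genes, Prox1, Sox6, Eya4, Six4 and Rcan1 matched the promoter table, with 14 windows in all. GGAAAA also came in windows of Prox1, Sox6 and Six4. TCAGGTT came in windows of Six4 (97 bases before 1 of its starts) and Sox6, and AACAAT and GGTGTGA in windows of Sox6. The shares are per window, and each of these genes had more than 1 window. Of the Sox6 matches, 5 lay in the window before the start at chr7:115824710. The windows of Eya4 held none of the 5. The Six4 start with TCAGGTT (chr12:73113245) and the match itself lie inside the annotated gene, which ends at 73113456. Windows of Six4 and Eya4, and some of Sox6, overlap annotated exons of their own gene. A match does not show that a factor binds, and binding was not measured.

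The other calcineurin and NFAT pathway genes moved in both directions. Of 15 tested, 3 were higher, 5 were lower and 7 did not pass, with a median log2 fold change of 0.01, close to that of all tested genes. The higher genes were Nfatc4 (log2 fold change 0.93), another NFAT factor, Rcan3 (0.57), a relative of Rcan1, and Mef2c (0.33), a calcineurin-responsive myogenic factor. The lower genes were the catalytic subunits Ppp3cb (-0.40) and Ppp3cc (-0.17), and Nfatc3 (-0.21), Rcan2 (-0.24) and Mef2d (-0.29). The catalytic subunit Ppp3ca (-0.04) and the regulatory subunit Ppp3r1 (-0.03) did not pass. In controls the mean level of Ppp3ca was 108.9 CPM and that of Ppp3cb 107.6 CPM (n = 4). This list depended strongly on scaling. On library size alone 8 were higher and 1 lower, Ppp3cb alone staying lower, and Ppp3cc, Nfatc3, Ppp3ca and Ppp3r1 changed sign. With TMM, edgeR's exact test gave 3 higher and 4 lower. Ppp3cc lost its call without control 2 or 3 or Dnm2 wt/K562E mouse 1, 2 or 3, Nfatc3 without control 2 or 3 or Dnm2 wt/K562E mouse 4, and Mef2c without Dnm2 wt/K562E mouse 2, with log2 fold changes of -0.18 to -0.16, -0.21 to -0.16 and 0.29.

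Relatives of Sox6, Maf, Prox1 and Tbx15 gave 1 higher, 2 lower and 4 that did not pass among 7 tested, with a median log2 fold change of -0.18. Tbx18, a close relative of Tbx15, rose from 4.35 ± 0.65 to 9.65 ± 1.38 CPM (SD, n = 4 each), a 2.22-fold difference. Sox13, a relative of Sox6, fell by 0.54 on the log2 scale. The small Maf Mafg passed as lower (-0.20) but was at 0.01 on library size alone, and it passed with control 1 or Dnm2 wt/K562E mouse 4 left out but with no other mouse left out. On library size alone 3 were higher and 1 lower, with a median of 0.04, and edgeR's exact test left 1 lower.

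**Figure D3:**
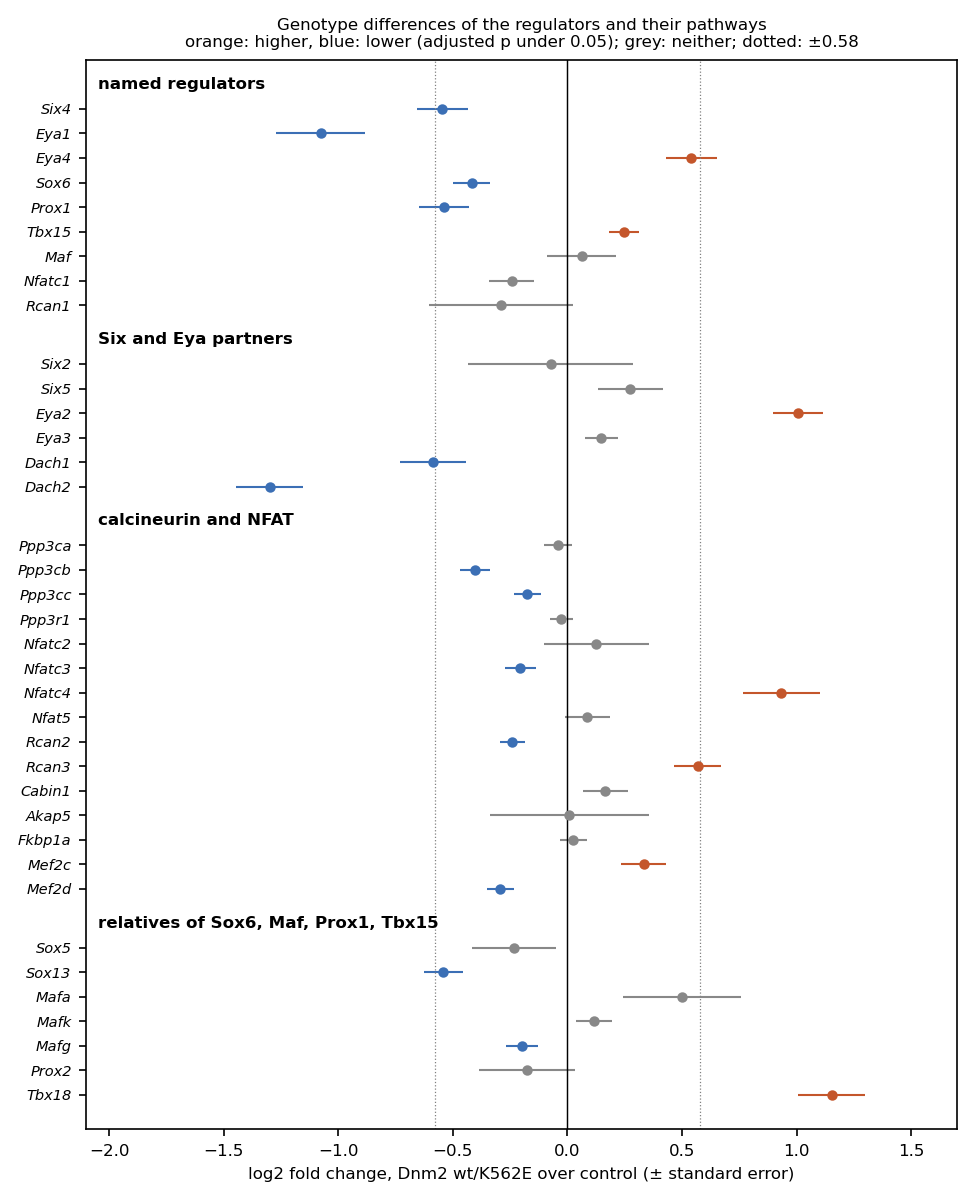
Log2 fold change (Dnm2 wt/K562E over control, ± SE) of the 9 genes, the Six4 and Eya partners, the calcineurin and NFAT genes and the relatives, orange where higher and blue where lower at an adjusted p under 0.05, grey where neither, with dotted lines at 0.58 in size. Among the 9 genes Eya1 is the lowest at -1.08, Eya4 the highest at 0.54 and Rcan1 has the widest error at 0.32.

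Of 16 other published regulators of fibre type, 1 was higher, 9 were lower and 6 did not pass, with a median log2 fold change of -0.41. Ppargc1a, a coactivator of mitochondrial and slow fibre genes, was at 53.21, 117.3, 101.8 and 85.97 CPM in controls and at 32.83, 25.24, 24.47 and 33.4 CPM in Dnm2 wt/K562E mice. It was lower in every Dnm2 wt/K562E mouse, with control 1 again the lowest control. Fnip1, which restrains oxidative fibre formation, fell by 1.07 on the log2 scale, and Vgll2, a cofactor of TEAD proteins, by 1.27. Ppard and the deacetylase Hdac5, both at a log2 fold change of -0.58, were lower too, although they act in opposite directions on oxidative fibre genes. Myog, the myogenic factor that rises after denervation, was the 1 higher gene with TMM, from 6.5 ± 1.46 to 55.8 ± 10.1 CPM (SD, n = 4 each; log2 fold change 3.10, adjusted p = 7.9e-07 by edgeR's quasi-likelihood test). On library size alone 2 regulators were higher and 6 lower, with a median of -0.20, and Tead1 (-0.24), Esrrg (-0.17) and Foxo1 (-0.25) were no longer called lower. With all counts scaled by TMM, Esrrg lost its call without control 3 or 4 or Dnm2 wt/K562E mouse 1, 3 or 4 (-0.38 to -0.24), and Foxo1 without control 2 or 3 or Dnm2 wt/K562E mouse 2 or 3 (-0.42 to -0.35).

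Contractile and metabolic genes typical of slow and of fast fibres were listed as well. Of 14 slow fibre genes, 3 were higher, 8 lower and 3 did not pass, with a median log2 fold change of -0.39. Myl3, the slow myosin light chain, fell by 2.12 on the log2 scale. The higher ones were Sln (1.79) and Pln (0.83), inhibitors of the calcium pump, and Myl6b (1.40), a light chain of slow fibres. Of 18 fast fibre genes, 0 were higher, 15 lower and 3 did not pass, with a median log2 fold change of -0.69. Pvalb (-3.34), a calcium buffer, Mybpc2 (-3.36), a thick filament protein, and Atp2a1 (-1.19), the fast calcium pump, fell. Control 4 raised the control means of Pvalb (946.1 CPM, other controls 341.5 to 469.1) and Mybpc2 (444.6 CPM, other controls 132.3 to 222.0). Every Dnm2 wt/K562E mouse still lay below every control in these genes. Myh2 (-0.62), the myosin of the fast oxidative fibres common in soleus, was lower as well, while Myh1 (-0.13), Mylpf (-0.07) and Myl1 (-0.20) did not pass and turned positive on library size alone. Myl1 passed without control 1 (-0.27). On that scale 4 slow genes were higher and 6 lower, and 0 fast genes higher and 14 lower. The median of the whole fast list was then -0.48 and of the slow list -0.18. With TMM, edgeR's exact test gave 4 slow genes higher and 8 lower, and 0 fast genes higher and 15 lower.

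**Figure D4:**
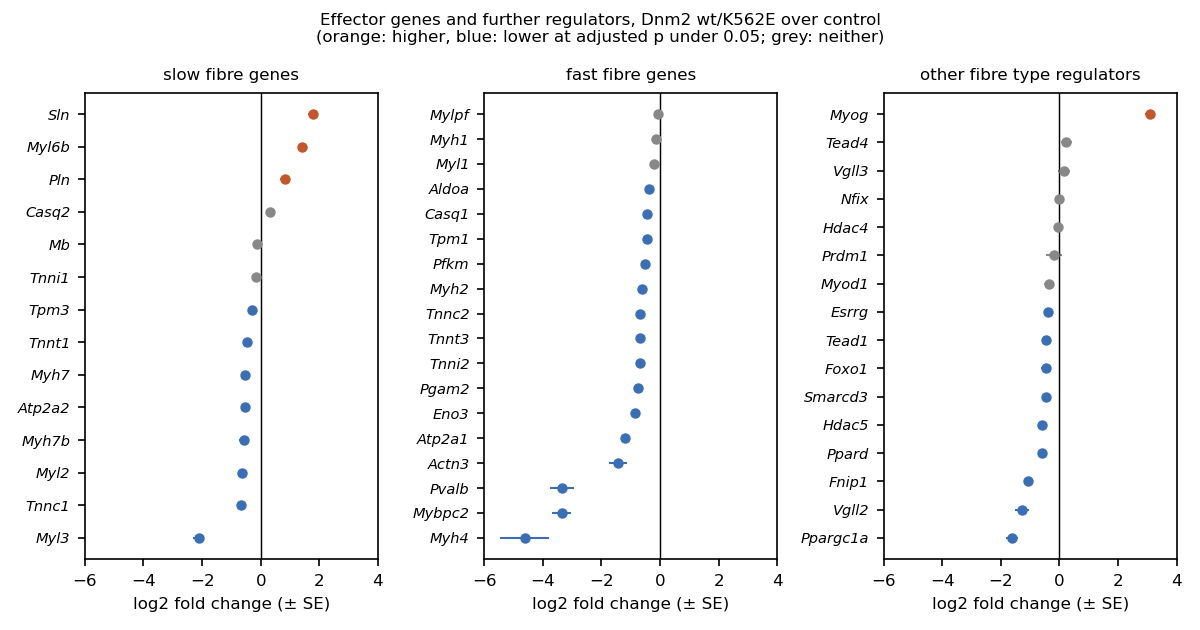
Log2 fold change (Dnm2 wt/K562E over control, ± SE) of each slow fibre gene, fast fibre gene and other fibre type regulator, in 3 panels, orange where higher and blue where lower at an adjusted p under 0.05 and grey where neither. The medians are -0.39 for the slow genes, -0.69 for the fast genes and -0.41 for the regulators, of which Myog alone is higher.

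Control 1 was often at an edge of the control values. It was the highest or lowest control in 8 of the 9, where it was so in 58.3% of all tested genes. In 5 of the 6 genes that passed the adjusted p it was the control nearest to the mean of the Dnm2 wt/K562E mice, beside 32.8% of all 6139 genes that passed. Control 4 was the highest or lowest control in 7 of the 9 genes (50.8% of all tested genes) and the nearest in none, beside 40.1% of the genes that passed. Leaving out any single mouse kept Six4, Eya1, Eya4, Sox6, Prox1 and Tbx15 past the adjusted p in 8 of 8 fits each. Their log2 fold changes then ranged from -0.63 to -0.46 for Six4, 0.49 to 0.63 for Eya4, -0.47 to -0.36 for Sox6, -0.64 to -0.47 for Prox1 and 0.21 to 0.29 for Tbx15. Nfatc1 and Rcan1 each passed in 1 of 8, the fit without control 1, and Maf in 0 of 8.

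**Figure D5:**
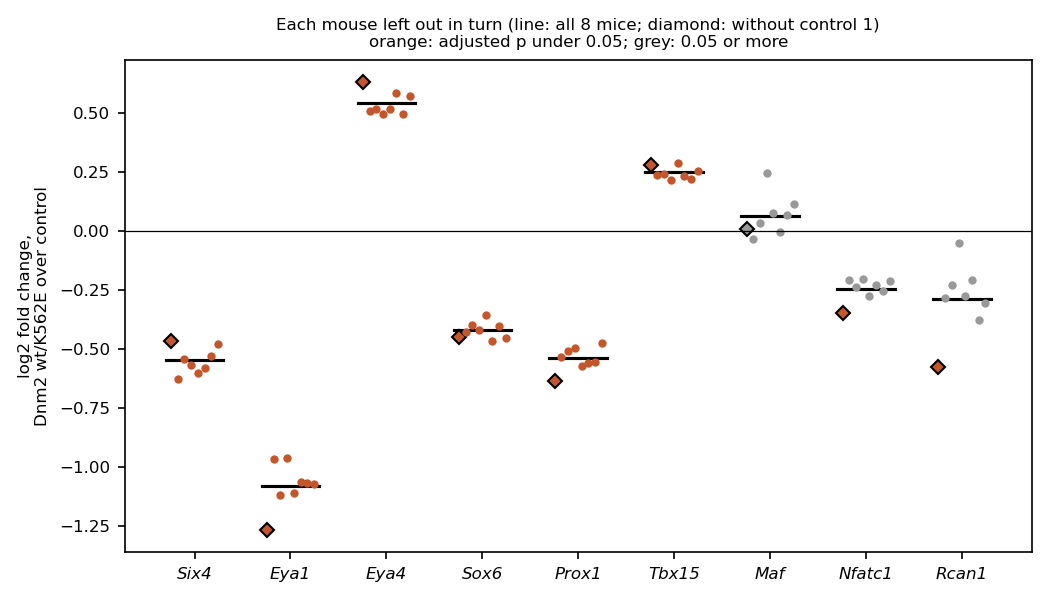
Log2 fold change (Dnm2 wt/K562E over control) of each of the 9 genes with all 8 mice (line) and with each mouse left out in turn (points, a diamond for control 1), orange at an adjusted p under 0.05 and grey otherwise. The estimates for Rcan1 run from -0.57 to -0.05 and those for Maf from -0.03 to 0.24, whereas the 6 genes that passed keep their direction.

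Per kilobase of exon, the order of the levels in controls was Rcan1 (129.1 ± 60.1 CPM per kilobase, SD, n = 4), Tbx15 (33.65 ± 1.97), Nfatc1 (6.80 ± 0.96), Sox6 (3.97 ± 0.16), Six4 (3.56 ± 0.51), Maf (3.28 ± 0.83), Eya1 (3.28 ± 1.01), Prox1 (2.68 ± 0.36) and Eya4 (0.90 ± 0.12). Neighbours from Sox6 to Prox1 overlapped in their control values, while Rcan1, Tbx15, Nfatc1 and Eya4 stood apart from their neighbours. In Dnm2 wt/K562E mice Maf came before Sox6, Six4, Prox1 and Eya1, which were all lower than in controls.

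Across the 8 mice, likeness of pattern was measured as the root-mean-square difference of log2 CPM after centring each gene on its own mean. By this measure Sox6 was closest to Trdmt1 (0.0429) and Syngr1 (0.0483), Nfatc1 to Adam15 (0.04) and Ap1b1 (0.0467), and Tbx15 to Tmem234 (0.0444) and Pdgfa (0.0446). Eya4 was closest to Rnf149 (0.0503), Six4 to Rslcan18 (0.0675), Prox1 to Arap2 (0.0749), Maf to Meis2 (0.0918) and Eya1 to Prkd1 (0.121). Rcan1 had the least similar nearest gene, Hspa1a, a heat shock protein gene, at 0.189. The values of these nearest genes describe these mice alone.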

How the data were processed

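After trimming (Trimmomatic 0.33) and alignment to GRCm38 (STAR 2.5.1b), the authors counted reads with featureCounts and deposited raw counts per Ensembl gene. A read over several genes counted for each, and multi-mapping reads counted at the primary alignment. Strand use is not given in the sources used here, and the methods name poly A libraries but the labels a total RNA kit. The methods describe independent mice, and no 2 libraries of a genotype agreed within sampling noise (chi-square per degree of freedom at least 12.9), so none was counted as a repeat of another.

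Here, 22647 of 22880 gene IDs were matched to GENCODE M21 (GRCm38), which gave symbols, positions and exon lengths. filterByExpr of edgeR 4.0.16 in R 4.3.3 (minimum count 10, minimum total 15) kept 14001 genes. The quasi-likelihood F-test with TMM factors compared genotypes, and p-values were adjusted by Benjamini-Hochberg over all tested genes. The standard error is the one implied by F, and CPM for likeness used a prior count of 2. Prox1os and Gm15655 are named because they overlap a member. Any other gene named by the text is a member, a gene of a written list, Dnm2 or one of the closest genes by pattern. A few genes of the lists are not reported here and were left out of the list counts. Members, lists and tests were chosen with earlier results of these data known. Alternatives were edgeR's exact test, DESeq2 1.42.0, library size alone, median-ratio factors, other filters, replicate blocks, no fold threshold and leaving out each mouse. The fit was tested on simulated data with 200 genes changed by 1.5 on the log2 scale, up or down at random. That setting does not test the dependence on scaling seen here. Mouse numbers in titles and in descriptions were tried as pairs: deviations of same-numbered mice correlated at -0.114 and -0.0302 on average, and the animals differ, so no pairing was kept.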

Additional observations from a re-analysis of the deposited data

Results flagged for a closer look

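Among 122 groups of 4 mice, 2 for each of 61 genes named in the text, 9 had 1 mouse set apart from the others. The limit was the 95% limit of Dixon's test, which chance passes in about 1 in 20 groups. The groups come from the same 8 mice and are not independent, so 9 of 122 cannot be weighed against that rate. Of the 9 regulators, only Eya4 had a mouse set apart, with control 1 at 10.13 CPM and the lowest control at 7.77 CPM. Control 1 was also apart in Vgll2 (85.71 CPM, with the highest control at 199.5 CPM) and in Myh7b (52.22 CPM). Control 4 was apart in Myh4 (3133.8 CPM, with the lowest control at 162.8 CPM), Six2 (1.649 CPM), Mafg (68.27 CPM) and Lyve1 (28.62 CPM). Among the Dnm2 wt/K562E mice, mouse 4 was apart in Mylpf (3742.2 CPM) and mouse 1 in Reln (43.4 CPM).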

How the results depend on the processing

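At an adjusted p under 0.05 together with a log2 fold change of 0.58, 0 of the 9 genes were higher and 1 was lower. Library size alone gave 1 higher, Eya4, and no fold threshold gave 2 higher and 4 lower. Leaving out 1 mouse at a time gave 0 to 1 higher and 1 to 2 lower. The higher gene was again Eya4, without control 1 (log2 fold change 0.628) or Dnm2 wt/K562E mouse 2 (0.581). Over all tested genes the counts were 1806 higher and 1099 lower, with 2865 and 564 on library size alone, 3103 and 3036 without the fold threshold, and 1588 to 1970 and 1026 to 1208 with a mouse left out. The members without overlap fell from 6 to 2 on library size alone. Maf (0.06) turned to -0.033 without control 2 and to -0.005 without Dnm2 wt/K562E mouse 2, within a range of -0.033 to 0.244 over the mice left out. The exact test, DESeq2, median-ratio factors and both filters left 0 members higher and 1 lower, and no member crossed the adjusted p threshold in them. With the mouse number of the titles as a replicate block the counts were 0 and 1 members and 1637 and 1036 genes, and with that of the descriptions 0 and 1 members and 1739 and 1083 genes. The block changed no member's call, although Rcan1 moved from -0.29 to -0.15 on the log2 scale. With 4 mice a genotype, the test spans only the spread between these animals, and the balance of higher and lower calls depends on the scaling.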
